A study of Mus musculus with 30 samples.

Results

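The 86 heat shock protein and chaperone genes of a 2-colour array study of mouse fibroblasts were taken by name. A gene belonged to the set when its name on the array began with Hsp, Dnaj, Cct2 to Cct8, Bag1 to Bag6, Fkbp or Stip1, and the basement membrane proteoglycan gene Hspg2 was left out. They were 86 of the 21689 genes that the array named, and 149 of its 33453 named probes. By name, the set held 30 J proteins, 14 Fkbp immunophilins, 10 members of the Hsp70 family, 10 chaperonin genes, 7 small heat shock proteins, 5 Bag co-chaperones, 3 genes of the Hsp110 branch of Hsp70, 2 Hsp90 genes and 5 other genes. Of the 86 genes, 81 were matched by accession to a RefSeq symbol and 8 now carry another one: Hsp105 is Hsph1, Hspca is Hsp90aa1, Hspcb is Hsp90ab1, Hspa9a is Hspa9, Dnajb10 is Dnajb2 and Dnajd1 is Dnajc15. The remaining 2, Hspa5bp1 and Hspc171, are now Tmem132a and Tmem208, which are not named as chaperones.

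Chaperones bind unfolded proteins and help them to fold, to refold after stress or to be degraded. Hsp70 works in an ATP-driven cycle in which J proteins deliver clients and start ATP hydrolysis, while Hsp110 and Bag proteins release the nucleotide. Hsp90 completes the folding of kinases and steroid receptors together with Stip1 and large Fkbp immunophilins, and chaperonins fold proteins inside a barrel. Many of these genes are transcribed by heat shock factor 1 when proteins unfold, those of the endoplasmic reticulum by the unfolded protein response, and some by NFAT5 when cells are placed in a hypertonic medium.

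Total RNA came from immortalised mouse embryonic fibroblasts (MEFs), either wild type or lacking the stress kinase p38α (p38α-/-), in 15 groups of 2 arrays each. Wild type MEFs received 25 ng/ml of the protein synthesis inhibitor anisomycin for 45 min, 100 ng/ml of the cytokine TNFα for 45 min, or 100 mM NaCl for 45 min, 2 h or 8 h. The same 5 stresses were also given after the p38 inhibitor SB203580 (10 µM, from 30 min before the stress), which the last of the 11 wild type groups received alone; some labels give 10 mM and 2 h for it, so its dose and time rest on the written protocol. The p38α-/- MEFs made up 4 groups, of which 1 was left unstressed and the others were given anisomycin, TNFα or 2 h of NaCl at the same doses. Each genotype is 1 immortalised line. The sample carried Cy5, and Cy3 was always on RNA pooled from the same 2 unstressed wild type cultures. The pool is therefore 1 control sample without a spread of its own, and all comparisons with it share it. A dye bias of a probe stays in those comparisons. It cancels in a difference between groups, but not in the differences of responses below, where the wild type response is a ratio to the pool. Values are log2 ratios of sample to pool, so that 1 is a 2-fold higher level. The study's methods speak of 2 independent experiments. Since the RNA is of whole cultures, fewer cells of a type and less RNA per cell cannot be told apart.

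Between 6.78% and 44.8% of spots on an array (median 16.0%) carried an outlier flag and were left out, so that between 12 and 52 of the 86 genes could not be tested in a given comparison, and 31 were measured on all 30 arrays. Where values with these spots kept are given, they are named as such. In Cy5, 84 of the 86 genes were well above background on all 30 arrays, and none was saturated throughout a group. Of 9 fibroblast markers 9 were well above background on all 30 arrays, but so were 4 of 4 blood and 2 of 2 epithelial markers, so that these flags could not separate cell types. The Mapk14 probe, read with outlier spots kept, of the p38α gene, lay between -2.24 and -0.94 on the 8 p38α-/- arrays and between 0.029 and 1.31 on the 22 wild type arrays. The first wild type arrays were all scanned on 1 day and the second ones on another, which they shared with the first arrays of p38α-/- MEFs.

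Several genes stood off the pool whatever the treatment. With outlier spots kept, 5 genes were above the pool on all 30 arrays, namely Dnaja2, Dnajc12, Dnajc13, Hspca and Hspe1, and 10 were below it on all 30. The second group comprised Cct3, Cct6a, Dnajb5, Dnajc4, Fkbp2, Fkbp5, Fkbp8, Hspb2, Hspb3 and Hspc171, of which Hspb2 lay between -1.35 and -0.53 and Fkbp2 between -0.75 and -0.19. Other genes had the same sign on 29 of the 30, among them Fkbp9, Hsp105 and Hspa14 above the pool and Dnajb10, Fkbp4 and Stip1 below it. How many of all genes kept the same sign on all 30 arrays was not counted. These counts therefore describe single genes and no trait of the set. Whether these offsets belong to the pool or to the dyes was not tested, and they remain in every ratio of these genes to the pool.

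Osmostress for 8 h was the treatment with the highest values of the set, led by the Hsp110 gene Hspa4l at a log2 ratio of 2.12 and followed by Hspa1a, Hspca, Hsp105, Dnajb9 and Dnaja2. Of the 66 chaperone genes tested after 8 h, 24 passed an adjusted p of 0.05 in limma, 16 higher and 8 lower than the pool, whereas of all genes tested 22.2% passed, 11% higher and 11.2% lower. The median of the 66 was 0.07, against 0.002 over all genes. At 2 h, 13 of 74 passed, 9 higher and 4 lower, where 9.92% of all genes passed, 5.24% higher and 4.69% lower, with medians of 0.02 for the set and 0.00 for all genes. At 45 min 1 of 45 passed, where 9.88% of all genes did.

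**Figure D1:**
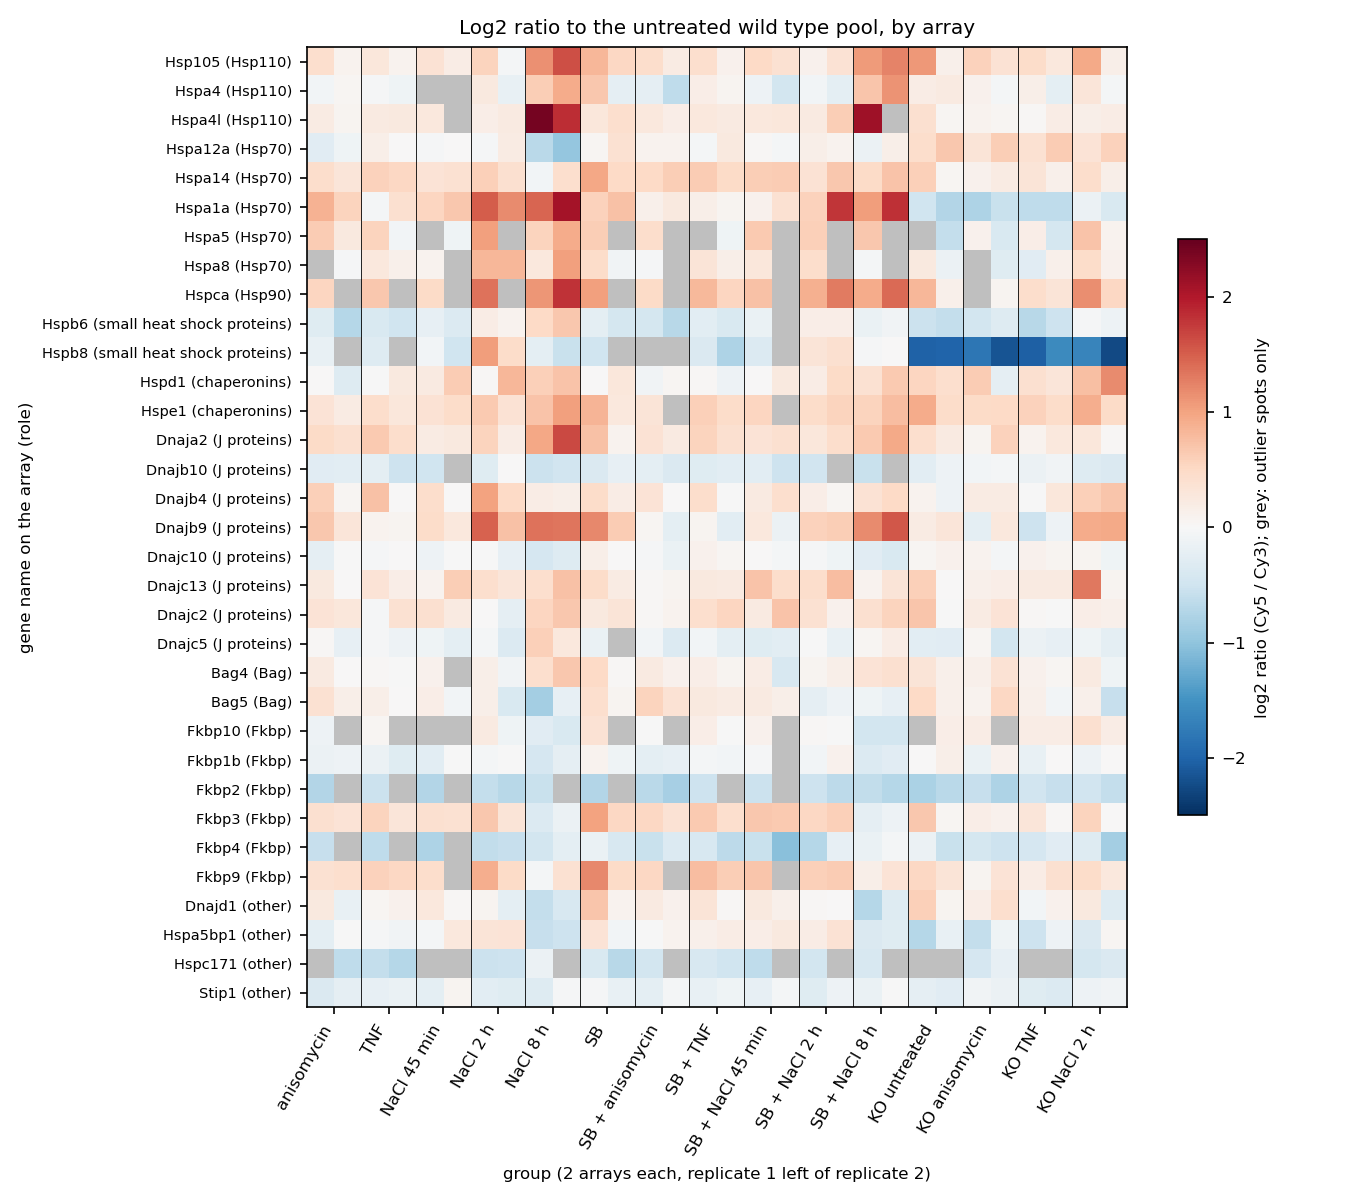
Heat map of 33 chaperone genes (rows, grouped by role) on the 30 arrays (columns, by group, replicate 1 left of replicate 2). The genes are those called against the pool at 2 h or 8 h of NaCl, or between 8 h and an earlier time. They were thus chosen by their NaCl values, and the other members are not shown. Colour is the log2 ratio to the untreated wild type pool and grey marks genes left with outlier spots only; Hspa4l stands out in the NaCl 8 h columns, at 2.39 and 1.85 on its 2 arrays.

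Hspa4l encodes an Hsp110 protein that releases nucleotide from Hsp70, and it was measured by 4 probes. Its log2 ratios were 2.39 and 1.85 on the 2 arrays of NaCl at 8 h, against 0.17 and 0.22 at 2 h and 0.26 on the single array with an outlier-free value at 45 min. The 8 h arrays did not overlap those of any other wild type group without 8 h of NaCl. At 8 h its mean was 2.12 (SE 0.11, n = 2, adjusted p = 8.21e-09 in limma, 95% interval 1.88 to 2.37). It rose between 2 h and 8 h by 1.93 (SE 0.16, adjusted p = 7.66e-06). In that difference 9 of 62 chaperone genes passed, 5 higher and 4 lower, where 7.81% of all genes passed, 3.34% higher and 4.47% lower. Hspa4l was the 1 member of the 9 whose call remained under every alternative run for this difference, but its brightest probe alone could not be tested. All 4 probes took part: with outlier spots kept they lay between 1.85 and 3.68 on the 8 h arrays, and A_52_P652704 was the highest of them on both.

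**Figure D2:**
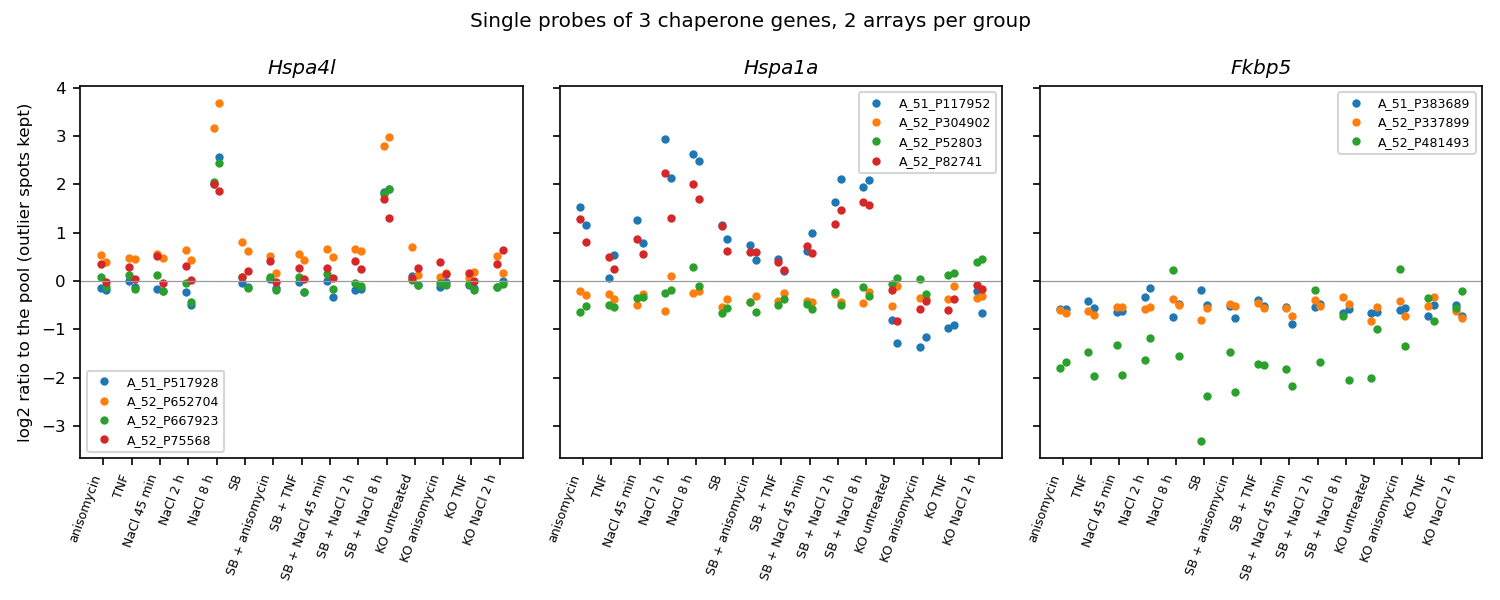
Single probes of 3 chaperone genes (panels) in the 15 groups along the horizontal axis, with 1 point per array and the log2 ratio to the pool, outlier spots kept, on the vertical axis. The 4 Hspa4l probes rise together at 8 h of NaCl, whereas only 2 of the 4 Hspa1a probes lie above 1 there and the 3 Fkbp5 probes lie at different levels.

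The other Hsp110 genes followed at 8 h. Hsp105, the stress-inducible Hsp110, had log2 ratios of 1.14 and 1.61 at 8 h, 0.56 and -0.04 at 2 h and 0.36 and 0.18 at 45 min, and its 8 h arrays lay above all the earlier ones. Its mean at 8 h was 1.37 (SE 0.20, adjusted p = 8.68e-05), and it rose by 1.12 from 2 h (adjusted p = 0.0205) and by 1.10 from 45 min (adjusted p = 0.0228). Hspa4, the constitutive Hsp110, had 0.62 and 0.92 at 8 h and 0.25 and -0.20 at 2 h. It rose over the pool at 8 h (0.77, adjusted p = 0.00381), and its difference of 0.74 from 2 h did not pass (adjusted p = 0.078) except with outlier spots kept (0.90, adjusted p = 0.0017). At 8 h 3 of the 3 Hsp110 genes therefore passed, with a median of 1.37, and at 2 h 0 of 3. Of all genes, 22.2% passed at 8 h and 9.92% at 2 h. Without the second 8 h array the adjusted p of Hspa4 was 0.136.

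**Figure D3:**
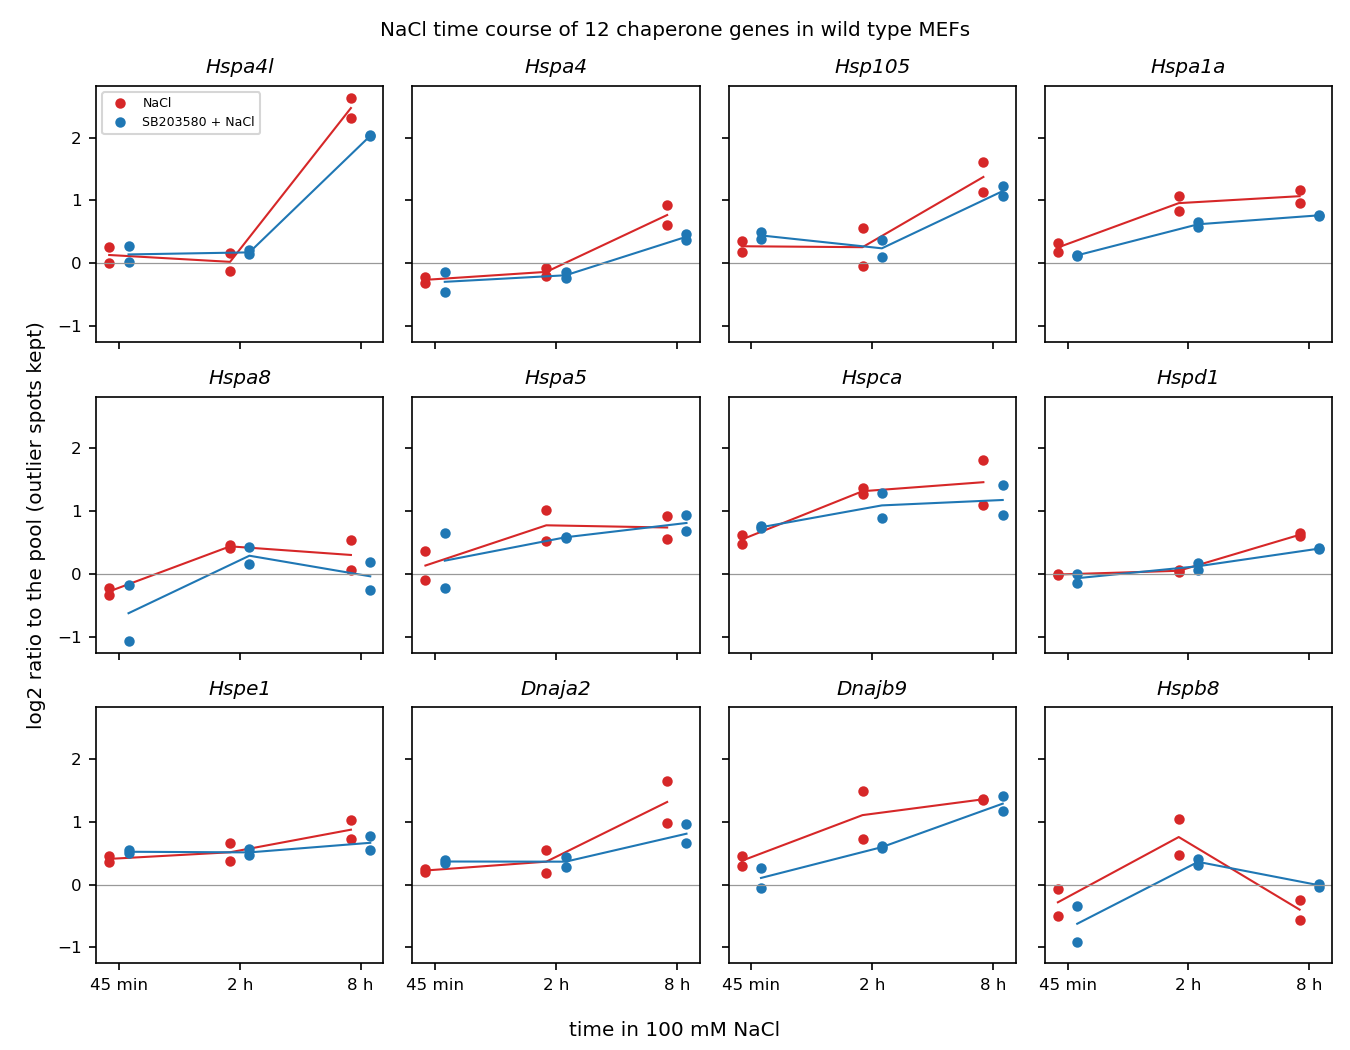
Log2 ratio to the pool (vertical axis, outlier spots kept) of 12 chaperone genes against time in 100 mM NaCl in wild type MEFs, without (red) and with (blue) SB203580, with 1 point per array and the group means joined. Without the inhibitor, Hspa4l reaches 2.31 and 2.63 at 8 h after -0.12 to 0.26 at the earlier times, and Hspb8 is highest at 2 h, at 1.05 and 0.46.

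Hspa1a, which encodes the stress-inducible Hsp70, rose at both later times. It had log2 ratios of 0.55 and 0.67 at 45 min, 1.52 and 1.18 at 2 h and 1.46 and 2.09 at 8 h, with all later arrays above the 45 min ones. Its mean was 1.35 at 2 h (SE 0.22, adjusted p = 0.000665) and 1.77 at 8 h (SE 0.22, adjusted p = 1.18e-05), and the step of 0.43 from 2 h to 8 h did not pass (adjusted p = 0.52). Without the first 2 h array the adjusted p at 2 h was 0.0714. The probes disagreed: A_51_P117952 read 2.95 and 2.14 at 2 h and A_52_P82741 read 2.24 and 1.29, whereas A_52_P304902 read -0.63 and 0.10. Since outlier flags removed different probes on different arrays, the gene mean with these spots kept was lower, at 0.96 at 2 h and 1.07 at 8 h, and its call remained at both times. Hspa1b, the near-identical neighbour of Hspa1a, had 1 probe, which lay between -0.51 and 0.12 on all 30 arrays with outlier spots kept. The array's probes may not separate the pair, so that the assignment to Hspa1a is uncertain.

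Among the other Hsp70 genes, Hspa8, the constitutive cytosolic Hsp70, had log2 ratios of 0.82 and 0.83 at 2 h and 0.26 and 1.03 at 8 h. It passed at both times (adjusted p = 0.0195 and 0.0301) but not with outlier spots kept (0.44 at 2 h and 0.30 at 8 h). Its second probe, A_52_P12877, had no outlier-free spot on any array. Hspa5, the Hsp70 of the endoplasmic reticulum also known as BiP, had 0.56 and 0.92 at 8 h (mean 0.74, adjusted p = 0.0438, and 0.0613 with outlier spots kept). Hspa14, a ribosome-associated Hsp70, was above the pool at 2 h (0.59 and 0.41, adjusted p = 0.0278), as it was on 29 of 30 arrays. Hspa12a, a divergent Hsp70, fell at 8 h: its arrays read -0.67 and -0.97 at 8 h, against -0.04 and 0.21 at 2 h and -0.02 and 0.01 at 45 min. It fell by 0.91 between 2 h and 8 h (SE 0.16, adjusted p = 0.0017) and was not called with the brightest probe alone. The mitochondrial Hspa9a (-0.06 at 8 h) and the testis-enriched Hspa2 (0.13 at 2 h) did not pass.

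Of the Hsp90 genes, the inducible Hspca was high and the constitutive Hspcb was not. Hspca read 1.10 and 1.82 at 8 h (mean 1.46, SE 0.23, adjusted p = 0.00119), and its 2 h arrays were 1.36 and 1.27 with outlier spots kept, when it also passed at 2 h (adjusted p = 0.000183). Hspca was above the pool on all 30 arrays, and its difference between 8 h and 2 h was 0.14 with outlier spots kept (adjusted p = 0.86). Hspcb had a mean of 0.10 at 8 h (adjusted p = 0.86). Their partner Stip1, which links Hsp70 to Hsp90, was lower than the pool at 2 h (-0.27 and -0.30, adjusted p = 0.049), and so was the Hsp90-bound immunophilin Fkbp4 (-0.61 and -0.58, adjusted p = 0.0226). With outlier spots kept, each was below the pool on 29 of 30 arrays. Stip1 was not called when wild type arrays alone were fitted, nor Fkbp4 with the brightest probe alone.

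The mitochondrial chaperonin pair Hspd1 (Hsp60) and Hspe1 (Hsp10), which form the folding chamber of mitochondria, were both called at 8 h. Hspe1 read 0.72 and 1.03 (mean 0.87, SE 0.14, adjusted p = 0.000321) and Hspd1 read 0.60 and 0.71 (mean 0.66, adjusted p = 0.0154). Hspe1 had also passed at 2 h (0.66 and 0.37, adjusted p = 0.0306), but it was above the pool on all 30 arrays and its difference of 0.36 between the times did not pass (adjusted p = 0.36). The Cct genes, subunits of the cytosolic chaperonin that folds actin and tubulin, were scarcely measurable: of Cct2 to Cct8, only Cct2 (0.23) and Cct4 (-0.36) could be tested at 8 h and neither passed. With outlier spots kept, Cct5 was higher at 8 h (0.72, adjusted p = 0.004), and Cct4 was lower (-0.36, adjusted p = 0.021). Cct6a was also below the pool at 8 h (-0.57, adjusted p = 0.00077), as it was on all 30 arrays, and its difference between 8 h and 2 h was -0.03 (adjusted p = 0.96).

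Among the J proteins, 5 of 28 tested were higher and 2 lower at 8 h, where 11% and 11.2% of all genes were. At 2 h, 2 of 30 were higher and 0 lower, where 5.24% and 4.69% of all genes were. Dnajb9, a J protein of the endoplasmic reticulum, read 1.48 and 0.72 at 2 h and 1.37 and 1.34 at 8 h, with means of 1.10 (adjusted p = 0.000619) and 1.35 (adjusted p = 2.18e-05). Without the first array its value at 2 h was 0.72 (adjusted p = 0.133). Dnaja2, a cytosolic partner of Hsp70, read 0.20 and 0.25 at 45 min, 0.55 and 0.18 at 2 h and 0.98 and 1.65 at 8 h, and it rose by 0.95 between 2 h and 8 h (SE 0.22, adjusted p = 0.0124). Dnajb4, a relative of the Hsp40 gene Dnajb1, showed the other order, with 1.00 and 0.50 at 2 h (adjusted p = 0.00878) and a mean of 0.17 at 8 h (adjusted p = 0.55). Its fall of 0.58 from 2 h to 8 h did not pass (adjusted p = 0.17) except with outlier spots kept (-0.74, adjusted p = 0.00053). Dnajb1 itself had 0.21 and 0.47 at 8 h (adjusted p = 0.056), and Dnaja1 0.40 (adjusted p = 0.2) and Dnajc3, an inhibitor of eIF2α kinases, 0.02. Dnajc2, a ribosome-associated J protein, was called at 8 h (0.61, adjusted p = 0.00348) and against 2 h (0.71), but in neither with outlier spots kept. The synaptic vesicle protein gene Dnajc5 rose by 0.61 against 45 min (adjusted p = 0.0295) and by 0.63 against 2 h (adjusted p = 0.0246). Lower than the pool at 8 h were Dnajb10 (-0.51, adjusted p = 0.000876), Dnajd1 of the mitochondrial membrane, counted by name among the other genes (-0.50, adjusted p = 0.0351), and Dnajc10, a reductase of the endoplasmic reticulum (-0.37, adjusted p = 0.00169). Dnajb10 was below the pool on 29 of 30 arrays with outlier spots kept.

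Small heat shock proteins hold unfolded proteins without ATP. Hspb8, which acts with Bag3 in chaperone-assisted autophagy, was transiently high: it read -0.07 and -0.50 at 45 min, 1.05 and 0.46 at 2 h and -0.24 and -0.56 at 8 h. Its 2 h arrays lay above those of both other times, its mean at 2 h was 0.76 (SE 0.18, adjusted p = 0.0192), and it fell by 1.15 from 2 h to 8 h (SE 0.26, adjusted p = 0.0141). Hspb6 moved the other way, from -0.20 and -0.34 at 45 min through 0.20 and 0.08 at 2 h to 0.50 and 0.67 at 8 h. It rose by 0.85 between 45 min and 8 h (SE 0.14, adjusted p = 0.000728), a call that remained under every alternative run. In that difference 8 of 43 chaperone genes passed, 6 higher and 2 lower, where 7.53% of all genes passed. Hspb1, the Hsp27 whose phosphorylation lies downstream of p38, read 0.12 and 0.07 at 8 h (adjusted p = 0.7). Of the Bag co-chaperones, Bag4 was higher (0.55, adjusted p = 0.00501) and Bag5 lower (-0.52, adjusted p = 0.0338) than the pool at 8 h, and Bag1 had -0.34 (adjusted p = 0.14). Bag3 could be tested with outlier spots kept only, when it was 0.44 at 2 h (adjusted p = 0.0073) and 0.10 at 8 h (adjusted p = 0.58).

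Of the Fkbp immunophilins, which catalyse prolyl isomerisation, 2 of 13 were higher and 2 lower at 2 h, where 5.24% and 4.69% of all genes were. At 8 h, 0 of 11 were higher and 2 lower, where 11% and 11.2% of all genes were. Fkbp9 (0.69, adjusted p = 0.00914) and the nuclear Fkbp3 (0.49, adjusted p = 0.0392) were higher at 2 h, and Fkbp3 fell by 0.73 between 2 h and 8 h (adjusted p = 0.0336). Fkbp9 was above the pool on 29 of 30 arrays with outlier spots kept. Fkbp2 was lower at 2 h (-0.65, adjusted p = 0.00107) and, with outlier spots kept, was below the pool on all 30 arrays. Fkbp5, the glucocorticoid-inducible partner of Hsp90, was at -1.44 at 45 min (arrays -0.93 and -1.94, adjusted p = 0.0245), the single gene of the set called at that time, and its 8 h mean of -0.92 did not pass. Its 3 probes, read with outlier spots kept, were all below the pool at 45 min but at different levels, A_52_P481493 at -1.32 and -1.94, A_51_P383689 at -0.65 and -0.61 and A_52_P337899 at -0.53 and -0.54. The gene was below the pool on all 30 arrays, and its difference between 8 h and 45 min did not pass (0.52, adjusted p = 0.719). Counts after NaCl leaned on single arrays: 1 gene of the set was called at 2 h without the first array and 7 without the second, and 17 and 15 genes at 8 h. At 8 h, 9 of the 24 calls remained under every alternative run, those of Hspa4l, Hspa1a, Hspca, Hsp105, Dnajb9, Dnaja2, Hspe1, Hspb6 and Dnajb10, and at 2 h 1 of 13 did, that of Fkbp2. For Hspa4l and Hspa1a at 8 h and Fkbp2 at 2 h the brightest probe alone could not be tested. With outlier spots kept, 24 genes passed at 2 h, where 19.7% of all genes did, and 31 at 8 h, where 26% did.

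The 250 bases before the start site of 6 genes that were higher after NaCl are shown for the elements of the factors named above, with capitals on each match. The sequences are those of RefSeq for build GRCm38.p6, read in the direction of the gene. Hspa4l lies at chr3:40745363-40745612 (plus strand) and held none of the motifs searched. Hsp105 lies at chr5:149636337-149636586 (minus strand), Hspe1 at chr1:55087898-55088147 (plus strand), Hspa1a at chr17:34972157-34972406 (minus strand), Hspa5 at chr2:34771840-34772089 (plus strand) and Dnajb9 at chr12:44210069-44210318 (minus strand). Capitals mark TTCNNGAA, a 2-unit heat shock element, in Hsp105, overlapping matches to the 3-unit element GAANNTTCNNGAA in Hspe1, GAANNTTC in Hspa1a, the endoplasmic reticulum stress element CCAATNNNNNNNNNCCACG in Hspa5 and the reverse complement of TGGAAA, the core of the tonicity element bound by NFAT5, in Dnajb9.
Hspa4l: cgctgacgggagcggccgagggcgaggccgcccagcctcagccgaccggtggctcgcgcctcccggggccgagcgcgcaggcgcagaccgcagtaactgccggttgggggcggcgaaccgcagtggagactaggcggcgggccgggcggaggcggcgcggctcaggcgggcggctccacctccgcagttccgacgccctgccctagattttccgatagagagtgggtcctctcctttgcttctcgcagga
Hsp105: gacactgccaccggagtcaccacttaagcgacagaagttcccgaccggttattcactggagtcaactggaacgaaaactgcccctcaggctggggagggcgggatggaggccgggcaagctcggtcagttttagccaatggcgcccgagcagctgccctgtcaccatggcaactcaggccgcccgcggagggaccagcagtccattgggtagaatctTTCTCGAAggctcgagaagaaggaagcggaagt
Hspe1: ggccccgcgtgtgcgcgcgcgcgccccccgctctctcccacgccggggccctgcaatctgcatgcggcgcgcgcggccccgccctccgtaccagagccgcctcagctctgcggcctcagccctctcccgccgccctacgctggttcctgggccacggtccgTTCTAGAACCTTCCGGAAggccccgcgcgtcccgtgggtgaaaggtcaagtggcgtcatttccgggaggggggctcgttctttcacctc
Hspa1a: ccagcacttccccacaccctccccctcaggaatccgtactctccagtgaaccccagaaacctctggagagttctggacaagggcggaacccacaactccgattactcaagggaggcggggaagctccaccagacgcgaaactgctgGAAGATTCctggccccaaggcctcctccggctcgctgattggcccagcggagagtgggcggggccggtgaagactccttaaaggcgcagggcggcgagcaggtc
Hspa5: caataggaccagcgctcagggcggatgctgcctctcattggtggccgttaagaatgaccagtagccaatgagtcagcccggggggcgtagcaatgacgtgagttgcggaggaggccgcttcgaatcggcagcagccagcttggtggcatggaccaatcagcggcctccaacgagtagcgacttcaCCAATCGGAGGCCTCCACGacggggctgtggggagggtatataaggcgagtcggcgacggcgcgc
Dnajb9: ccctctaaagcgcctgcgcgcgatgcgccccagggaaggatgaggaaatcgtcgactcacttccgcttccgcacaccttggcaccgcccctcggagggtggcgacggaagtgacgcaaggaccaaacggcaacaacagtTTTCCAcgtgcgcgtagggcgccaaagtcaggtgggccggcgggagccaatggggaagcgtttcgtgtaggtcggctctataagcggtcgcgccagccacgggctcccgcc

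Both strands were searched, and the 2-unit elements lie within the 3-unit one. The promoter table held 88 windows of 66 of the 86 genes, among 32851 windows of all genes. The 3-unit element was in 3 of the 66 genes (Dnajb6, Hspd1 and Hspe1, the last 2 of which share a window between them) and in 0.466% of all windows. GAANNTTC was in 10 of the 66 and in 6.69% of all windows, TTCNNGAA in 8 and 7.17%, and TGGAAA in 9 and 18.6%. The endoplasmic reticulum stress element was in 2, Hspa5 and Dnajc3, and in 0.113% of all windows. Counted by window, this last element was in 2.27% of the set's 88 windows and the 3-unit element in 4.55%. GAANNTTC was in 12.5% of them, TTCNNGAA in 11.4% and TGGAAA in 11.4%. These are matches of letters in the windows, and binding was not measured.

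Of the 3 short stresses of 45 min, anisomycin called 9.62% and TNFα 13.2% of the members tested, near the shares of all genes. NaCl called 2.22%, where 9.88% of all genes passed. With anisomycin 5 of 52 passed, 2 higher and 3 lower, where 12% of all genes passed. Hspa1a was higher (0.87 and 0.56, adjusted p = 0.0373), and so was Dnajc14, a J protein of the endoplasmic reticulum (0.97 and 0.32, adjusted p = 0.0257), which was at 0.05 with outlier spots kept. Stip1 (-0.30), Hspb6 (-0.51) and Dnajb7 (-0.80) were lower. Dnajb7 was well above background in Cy5 on only 18 of 30 arrays, and Stip1 was below the pool on 29 of 30 with outlier spots kept. With TNFα 7 of 53 passed, 3 higher and 4 lower, where 11% of all genes passed. Dnaja2 (0.55), Fkbp9 (0.55) and Hspa14 (0.55) were higher, and Dnajb10 (-0.38), Hspb6 (-0.45), Hspc171 (-0.66) and Fkbp5 (-1.40) were lower. With outlier spots kept, Dnaja2, Hspc171 and Fkbp5 had the same sign on all 30 arrays, and Fkbp9, Hspa14 and Dnajb10 on 29 of 30. No call of these 3 groups remained under every alternative run, and without 1 of the 2 arrays between 1 and 3 were called with anisomycin, between 0 and 2 with TNFα and between 0 and 1 with NaCl. In these groups 31, 25 and 18 of the 86 genes passed with outlier spots kept, where 24.9%, 22.4% and 19% of all genes did. The replicate block called 9 with anisomycin (21.2% of all genes) and 6 with NaCl (20.1%).

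SB203580 alone, without a stress, left 18 of 52 tested members apart from the pool, 11 higher and 7 lower, where 26.6% of all genes passed, 14.7% higher and 11.8% lower. The highest were Dnajb9 (1.20 and 0.63), Dnajc14 (1.10 and 0.60), Fkbp9 (1.21 and 0.48), the neuronal clathrin uncoating factor Dnajc6 (0.94 and 0.64) and Fkbp3 (1.01 and 0.53). In each of these 5 the first array was the higher one, and each call was lost without it. Dnajc14 was at 0.11 with outlier spots kept and was not called there or with the series matrix. Hsp105 (0.67, adjusted p = 0.0207), Hspa1a (0.66, adjusted p = 0.0311), Hspe1 (0.56, adjusted p = 0.00944) and Hspa4l (0.35, adjusted p = 0.033) were also higher, Hspa4l not with outlier spots kept (0.18). Lower were Fkbp5 (-1.91, adjusted p = 0.00201), Dnajc4 (-0.73), Hspb7 (-0.57), Hspc171 (-0.53), Hspb6 (-0.35), Hspb9 (-0.29) and Dnajb10 (-0.28). No call remained under every alternative run, and 2 genes were called without the first array and 25 without the second.

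Whether SB203580 altered the response was tested as the difference between stress with and without it. Over the mean of the 5 stresses 0 of 34 members passed in limma, where 0.0742% of all genes did; 3 of the 34 had an unadjusted p under 0.05, and 0 passed in any alternative run. At 8 h of NaCl 2 of 57 passed, where 0.206% of all genes did. Hspa12a, which had fallen with NaCl, was higher with the inhibitor: its arrays read -0.15 and 0.15 with it and -0.67 and -0.97 without (difference 0.82, SE 0.16, adjusted p = 0.0421). Hspb6 was lower, at -0.17 and -0.09 with the inhibitor and 0.50 and 0.67 without (difference -0.71, SE 0.14, adjusted p = 0.0415). In both genes the 2 pairs of arrays did not overlap, but both calls were lost when either inhibitor array or the second NaCl array was left out, and when wild type arrays alone were fitted. That of Hspa12a was also lost with normexp, with the series matrix, with the brightest probe and with probes well above background.

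The genes with the largest rise at 8 h were high with the inhibitor too. Hspa4l read 2.11 on the single outlier-free array, and 2.04 and 2.02 against 2.31 and 2.63 with outlier spots kept, where the inhibitor arrays were the lower ones (difference -0.44, 95% interval -0.74 to -0.14, adjusted p = 0.484). Hsp105 read 1.07 and 1.23 with SB203580 (difference -0.23, 95% interval -0.83 to 0.38, adjusted p = 1), and the 2 groups overlapped. Hspca read 0.93 and 1.42 (difference -0.28, 95% interval -1.0 to 0.44), Hspa1a 1.04 and 1.82 (difference -0.34, 95% interval -0.98 to 0.30) and Dnajb9 differed by 0.005 (95% interval -0.51 to 0.52). The intervals of Hspca and Hspa1a are too wide to exclude a loss of a good part of the rise. Dnaja2 had a difference of -0.50 (95% interval -0.97 to -0.04, adjusted p = 0.902). Against SB203580 alone, 8 h of NaCl with it called 4 of 46 members, where 7.78% of all genes passed. No group had the inhibitor alone for 8 h, so NaCl and longer time with the inhibitor cannot be told apart here. Hspb9 was higher (0.39), and Fkbp3 (-0.94), Dnajd1 (-0.91) and Dnajc10 (-0.41) were lower.

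**Figure D4:**
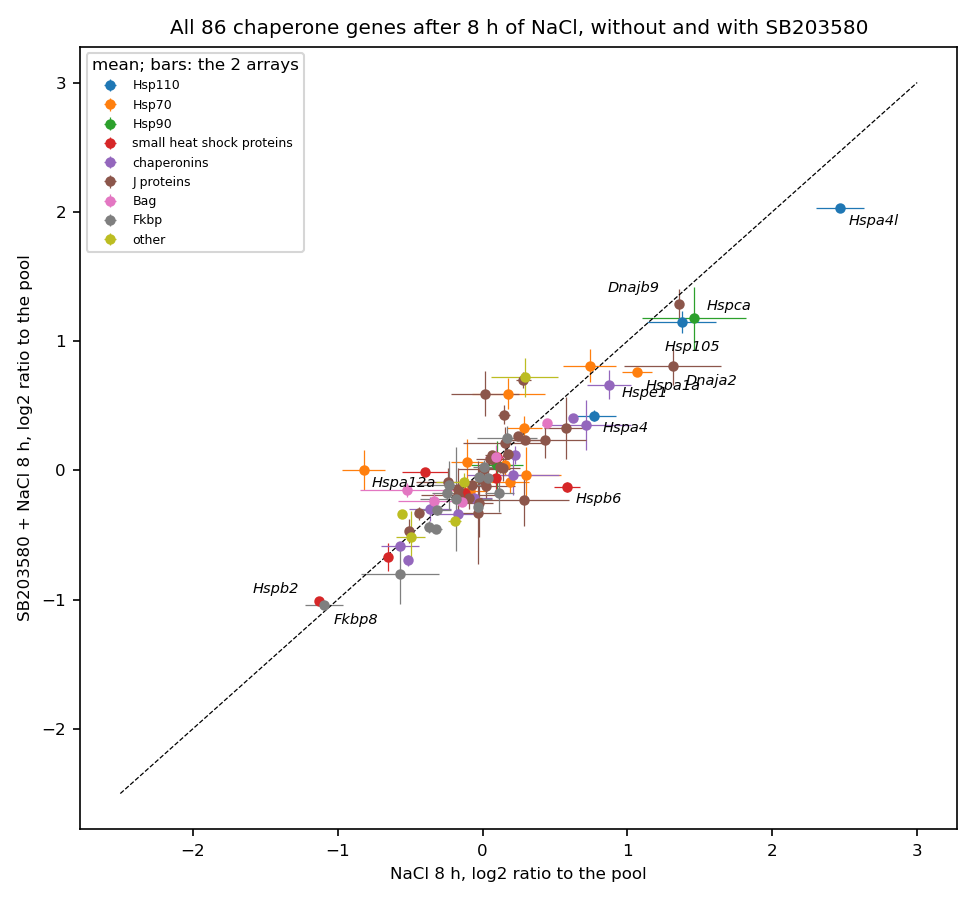
All 86 chaperone genes by their log2 ratio to the pool after 8 h of NaCl without (horizontal axis) and with SB203580 (vertical axis), outlier spots kept; points are means of 2 arrays, bars reach the 2 arrays and colours are roles. Hspa4l is the farthest gene along both axes, at means of 2.47 and 2.03.

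The response to 8 h of NaCl with the inhibitor, counted from SB203580 alone, was set against the response without it, counted from the pool. SB203580 alone was labelled 2 h, so longer time with the inhibitor also enters this difference of responses. In this difference of responses 0 of 43 members passed in limma, where 0.295% of all genes did, while 12 had an unadjusted p under 0.05 and the replicate block called 2 (3.07% of all genes). With outlier spots kept 5 passed, where 3.8% of all genes did: Hspa1a at -0.51 (adjusted p = 0.0403), and Fkbp5, Fkbp8, Hspb2 and Hspb3, from 0.79 to 1.27. These last 4 were below the pool on all 30 arrays, and an offset of the pool does not cancel in this difference. Hspa4l was at -0.63 (95% interval -0.99 to -0.26, adjusted p = 0.0515, outlier spots kept).

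Untreated p38α-/- MEFs differed from the pool in 13 of 62 tested members, 7 higher and 6 lower, where 15% of all genes passed, 8.02% higher and 6.96% lower. Hspb8 was the farthest from the pool, at -2.01 and -2.00 (mean -2.01, SE 0.18, adjusted p = 2.19e-05). Also lower were Fkbp5 (-1.20), Fkbp2 (-0.73), Dnajb5 (-0.67), Hspb6 (-0.56) and Hspa5bp1 (-0.44). Higher were Fkbp14, an isomerase of the endoplasmic reticulum (0.72), Hspe1 (0.69), Hsp105 (0.61), Hspa12a (0.55), Dnajc12 (0.55), the mitochondrial Dnaja3 (0.54) and Dnajc7, a bridge between Hsp70 and Hsp90 (0.50). These 7 calls on the higher side were all lost when p38α-/- arrays alone were fitted, a fit that called 6 members, whereas those of Hspb8, Fkbp2 and Hspb6 remained under every alternative run. For Fkbp2 the brightest probe alone could not be tested. Without the first array 5 members were called, and without the second 14.

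**Figure D5:**
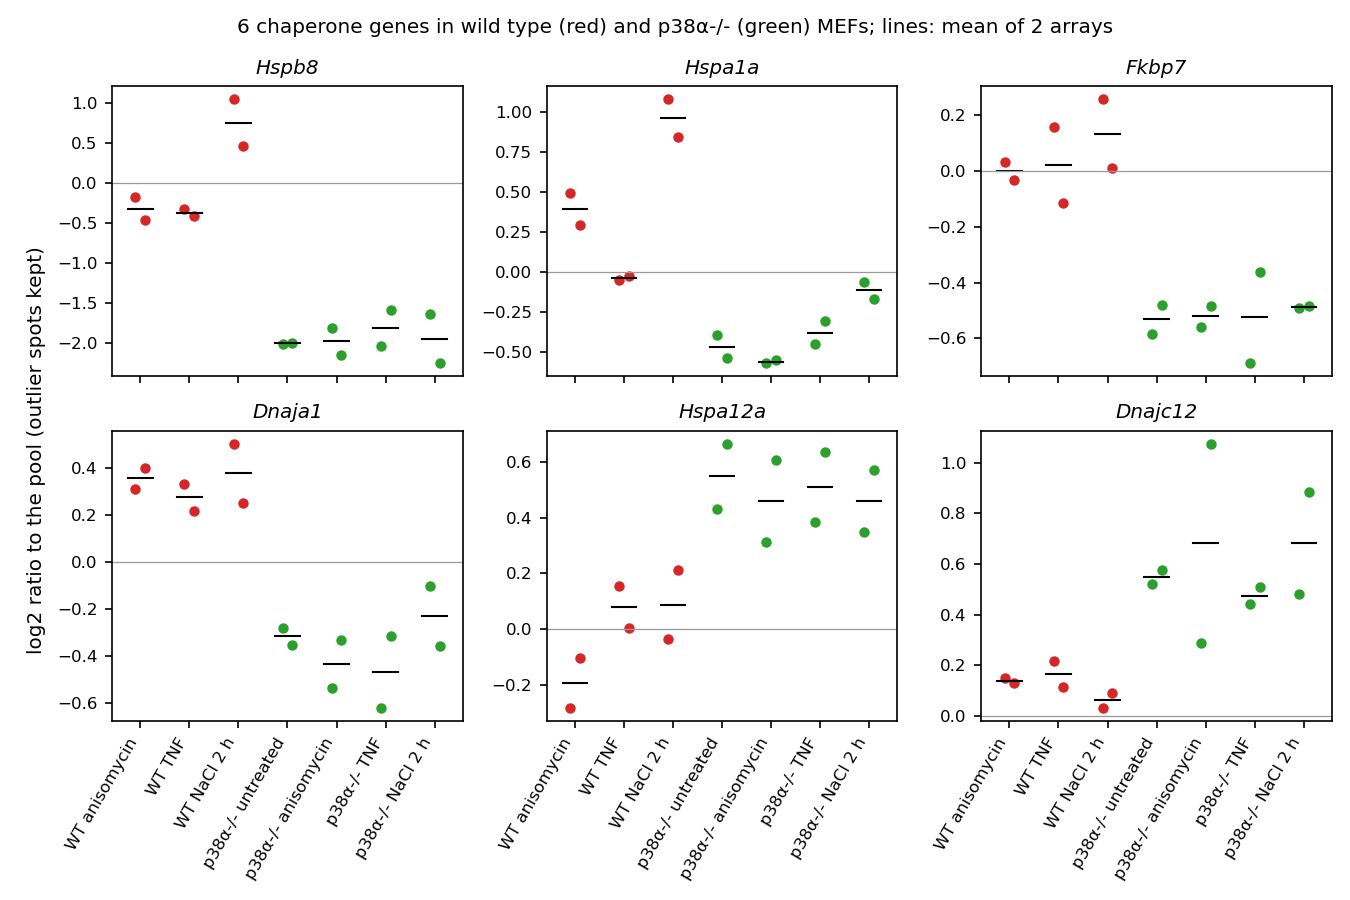
Log2 ratio to the pool (vertical axis, outlier spots kept) of 6 chaperone genes in wild type (red) and p38α-/- (green) MEFs under matched treatments, with 1 point per array and a line at the group mean. Hspb8 lies between -2.26 and -1.59 on the 8 p38α-/- arrays and between -0.47 and 1.05 on the 6 wild type arrays plotted.

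The genotypes were then compared directly over the 3 matched stresses, anisomycin, TNFα and NaCl for 2 h, where the pool cancels. Of 45 members tested 3 passed, 2 higher and 1 lower in p38α-/- MEFs, where 8.81% of all genes passed. Hspa1a was lower by a mean of 1.27 (difference -1.27, SE 0.18, adjusted p = 0.000149), and its call remained under every alternative run. The brightest of its 4 probes could not be tested alone. As the probes disagreed, the size depends on which of them entered, and the assignment to Hspa1a is uncertain. Its p38α-/- arrays read -0.77 and -0.55 with anisomycin, -0.64 and -0.64 with TNFα and -0.14 and -0.37 with NaCl. The wild type arrays read 0.87 and 0.56, -0.05 and 0.40, and 1.52 and 1.18, so that under each stress every wild type array lay above both p38α-/- arrays. Dnajc12 (0.49, adjusted p = 0.00789) and Hspa12a (0.48, adjusted p = 0.00275) were higher in p38α-/- MEFs.

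Scan day differed between the genotypes in part. On the day shared by both, the differences for the 3 stresses were -1.33, -1.04 and -1.32 for Hspa1a (mean -1.23), 0.16, 0.33 and 0.39 for Dnajc12 and 0.42, 0.38 and 0.14 for Hspa12a. The direction was that of all arrays in 3 of 3 stresses for each gene, with a lower mean for Dnajc12 (0.29) and Hspa12a (0.31). With outlier spots kept, which changes the probes that enter, the mean for Hspa1a was smaller in size, at -0.73. These values of single arrays carry no test. With scan day as a term 5 members passed (8.79% of all genes), and the call of Hspa12a was lost, as it was with the brightest probe (0.51, adjusted p = 0.161). The replicate block called 7 (18.4% of all genes).

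All 86 members could be compared with outlier spots kept, and 13 passed, where 12.8% of all genes did. Hspb8 was at -1.94 (SE 0.14, adjusted p = 8.41e-08), and its mean difference on the shared scan day was -1.69. Fkbp7, an isomerase of the endoplasmic reticulum, was at -0.56 (SE 0.08, adjusted p = 0.000172) and Dnaja1, the farnesylated cytosolic J protein, at -0.71 (SE 0.11, adjusted p = 0.000399). Over all treatments, 3 of the 86 members had p38α-/- arrays that did not overlap the wild type ones, as did 1.12% of all genes. They were Hspb8, Fkbp7 (-0.69 to -0.36 on 8 p38α-/- arrays, -0.14 to 0.35 on 22 wild type arrays) and Hspa1a (-0.57 to -0.06 and -0.05 to 1.17). Hspa1a was thus separated by the narrowest gap. Hspd1 (0.43, adjusted p = 0.013) was higher in p38α-/- MEFs with these spots kept, and Dnajb4 lower (-0.33, adjusted p = 0.0042). The p38α-/- MEFs are 1 line, so that the loss of p38α and other differences between the lines cannot be told apart.

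Within p38α-/- MEFs, no member passed in limma against the untreated cells of the same line. With anisomycin 0 of 56 passed (0.0847% of all genes, 1 member with an unadjusted p under 0.05), with TNFα 0 of 59 (0.078% of all genes, 2 members) and with 2 h of NaCl 0 of 62 (1.08% of all genes, 7 members). For NaCl, Dnajb4 was at 0.67 (95% interval 0.16 to 1.17, adjusted p = 0.265) and passed with outlier spots kept (0.67, adjusted p = 0.00613). Dnajb9 was at 0.69 (95% interval 0.17 to 1.20, adjusted p = 0.265), Hspa1a at 0.36 (95% interval -0.28 to 1.00) and Hspb8 at 0.06 (95% interval -0.49 to 0.61).

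The stress responses of the genotypes were compared as differences of responses, with that of p38α-/- MEFs counted from their untreated cells and that of wild type MEFs from the pool. An offset of the pool or of the dyes does not cancel in these differences and enters all their values and counts. Of the members 0 of 59 passed in limma for 2 h of NaCl (0% of all genes), 0 of 49 for anisomycin (0.542%) and 0 of 49 for TNFα (0.45%), with 10, 9 and 11 at an unadjusted p under 0.05. The replicate block called 2, 3 and 1 members, where it called 0.86%, 3.15% and 1.8% of all genes, and keeping outlier spots called 5, 9 and 8, against 3.54%, 7.2% and 8.13% of all genes. For 2 h of NaCl, Hspa1a was at -0.99 (95% interval -1.77 to -0.20, adjusted p = 0.279) and at -0.61 with outlier spots kept (adjusted p = 0.0237), Hspb8 at -0.70 (95% interval -1.37 to -0.02) and Dnajb4 at -0.08 (95% interval -0.70 to 0.53).

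Partner genes outside the set were read from lists chosen by function. Of the heat shock factors and their binding protein, 0 of 3 tested passed at 2 h or 8 h of NaCl, with medians of 0.24 and 0.11. Among them, Hsf1 read 1.05 and 0.62 at 2 h and 0.36 and 1.23 at 8 h, and it was above the pool on all 30 arrays. Of all genes, 9.92% passed at 2 h and 22.2% at 8 h. Of Hsp70 and Hsp90 co-chaperones, 0 of 9 were higher and 1, Cdc37l1, lower at 2 h, and 1 of 7 higher and 0 lower at 8 h, the cyclophilin Ppid (0.69, adjusted p = 0.0109). Of the folding factors of the endoplasmic reticulum, 1 of 9 passed at 8 h, Hyou1 (1.07 and 0.71, adjusted p = 0.00323), the Hsp110-like partner of BiP, which was above the pool on all 30 arrays. Of the osmotic response genes, 2 of 5 were higher at 8 h, the taurine transporter Slc6a6 (0.99 and 0.99, adjusted p = 0.00957) and the tonicity factor Nfat5 (0.53 and 0.58, adjusted p = 0.000348), which rose by 0.58 from 2 h (adjusted p = 0.0117). The aldose reductase gene Akr1b3 was not called, with 2.30 on the first array at 8 h and -0.70 on the second, and 1.20 and -0.83 with SB203580. Prefoldin passes unfolded actin and tubulin to the Cct complex. Of 3 tested genes of the chaperonin and prefoldin list, Pfdn1 (-0.79, adjusted p = 4e-06) and Pfdn5 (-0.64, adjusted p = 0.00108) were lower at 8 h, and both fell from 2 h, by 0.68 and 0.58 (adjusted p = 0.00179 and 0.0489). The other one, the prefoldin subunit Vbp1, was at 0.34 at 8 h (adjusted p = 0.112) and was called higher at 2 h (0.49, adjusted p = 0.0409).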

How the data were processed

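The authors hybridised amplified total RNA of MEFs (Cy5) with a pool of untreated wild type MEFs (Cy3) on 30 Agilent arrays and extracted spot intensities with Agilent Feature Extraction (8.1.1.1 in the file headers, 9.1 in the submitters' processing notes), with spatial detrending, no local background subtraction, surrogates for dim signals and linear and LOWESS dye normalization. The deposited log10 ratio is processed Cy5 intensity over processed Cy3 intensity. The deposited series matrix holds log2-like values centred near 0, whose normalization is not given in the sources used here.

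Log10 ratios were turned into log2, control spots and outlier-flagged spots were left out, and probes of a gene were averaged, so that flags change which probes enter. Ratios against 0 were tested with limma 3.58.1 in R 4.3.3, with 15 group means over 30 arrays and 15 residual degrees of freedom, and with Benjamini-Hochberg adjustment over all genes measured on every array compared; a gene with an adjusted p under 0.05 was called. Tests against the pool leave out its own spread, and p-values measure the spread between the arrays of a group. Only 2 arrays per group limit the precision. Tables and figures were made with Python 3.11.15, numpy 2.4.6, pandas 2.3.3 and matplotlib 3.10.9.

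The members and lists were chosen with earlier results of these data known. Named genes were Hspa4l, members that define each role whatever their values, and in each comparison up to 10 called members with the largest log2 value and, against the pool, the same sign on both arrays; other members were named after their values were seen. Replicate numbers paired samples within a genotype: the difference between the 2 arrays had a correlation over 0.1 for 55 of 55 wild type and 6 of 6 p38α-/- pairs of groups, and for 6 of 44 pairs across genotypes. In simulated data with these spreads, 83% of genes changed by 1 log2 unit were called for NaCl at 8 h (16378 genes), 61% for 8 h against 2 h (15577 genes) and 37% for the difference of responses with SB203580 (13562 genes). The simulated noise was independent between arrays, without this pairing or an offset of the pool, and few genes were changed. These shares therefore need not hold for the real arrays. Alternatives were normexp (offset 50) with loess, the series matrix, outlier spots kept, the brightest probe, probes well above background, a replicate block, arrays of 1 genotype, a mean of 2.5-fold and each array left out; probes measured on every array compared, scan day as a term and arrays of the shared scan day were added after the data were seen.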

Additional observations from a re-analysis of the deposited data

How the results depend on the processing

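Counts of called members depended on the setting, in the order anisomycin, TNFα and NaCl at 45 min, 2 h and 8 h, SB203580 alone and untreated p38α-/- MEFs against the pool, for which the counts were 5, 7, 1, 13, 24, 18 and 13. With the series matrix they were 35, 29, 23, 31, 36, 50 and 40, and with outlier spots kept 31, 25, 18, 24, 31, 39 and 29; both settings test more genes. A mean of at least 2.5-fold held for 0, 1, 1, 1, 5, 1 and 1. Normexp with loess moved anisomycin to 12, TNFα to 11, NaCl at 45 min to 3 and p38α-/- to 21. Arrays of 1 genotype gave 3 for anisomycin, 2 for NaCl at 45 min and 6 for p38α-/-. For NaCl at 45 min the brightest probe gave 3, and so did probes measured on every array compared. With the replicate block anisomycin had 9 and NaCl at 45 min 6. With 1 array left out, a lone array being assumed to vary like the other groups, the counts lay between 1 and 3, 0 and 2, 0 and 1, 1 and 7, 15 and 17, 2 and 25, and 5 and 14.

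Among differences between groups, 8 h minus 45 min of NaCl (8 members) had 15 with the series matrix, 14 with outlier spots kept, 5 with the brightest probe and 2 to 5 with 1 array left out. The 8 h minus 2 h difference (9) had 15 with the series matrix and 4 to 5 with 1 array left out. SB203580 with 8 h of NaCl against NaCl (2) had 1 with normexp, the series matrix, the brightest probe and probes well above background, 0 with arrays of 1 genotype and 0 to 2 with 1 array left out. Against SB203580 alone (4) it had 14 with the series matrix, 10 with outlier spots kept and 0 to 6 with 1 array left out. The genotype difference over 3 stresses (3) had 18 with the series matrix, 13 with outlier spots kept, 7 with the replicate block, 5 with scan day as a term, 1 with the brightest probe and 3 to 6 with 1 array left out. The count of 0 for NaCl at 2 h in p38α-/- MEFs became 1 with outlier spots kept and 1 with the brightest probe.

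The counts of 0 for the differences of responses became, for NaCl at 8 h with SB203580, anisomycin, TNFα and NaCl at 2 h in that order, 13, 11, 10 and 4 with the series matrix, 5, 9, 8 and 5 with outlier spots kept and 2, 3, 1 and 2 with the replicate block. Normexp gave 1 for anisomycin and 1 for NaCl at 2 h, and leaving out 1 array gave 0 to 4 for NaCl at 8 h. The causes were not tested. No result reversed. Of the values of named members that were called, 107 of 107 kept their call under the replicate block, which added calls, 98 of 107 with outlier spots kept, 98 of 107 with normexp, 96 of 107 with the series matrix, 73 of 82 with the brightest probe and 142 of 290 with 1 array left out. Cy5 signal was well above background for between 81.1% and 96.8% of probes per array.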
